A study of Saccharomyces cerevisiae with 4 samples.

Results

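The PIR genes of Saccharomyces cerevisiae encode wall proteins with internal repeats, and their transcripts were compared between wild type cells and cells mutated for PMT1 and PMT2. The 5 members are PIR1 (YKL164C), PIR3 (YKL163W), HSP150 (YJL159W, also called PIR2), CIS3 (YJL158C, also called PIR4) and PIR5 (YJL160C). A probe set was taken for the family when the array's annotation gave it exactly 1 gene symbol and that symbol was 1 of these 5. Each gene had 1 such probe set, so the family made up 5 of the 5656 genes tested.

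PIR proteins carry no glycolipid anchor. They are joined to the β-1,3-glucan of the wall through glutamine residues of their repeats, and the bond is broken by mild alkali. On the way to the surface the protease Kex2 trims them and protein O-mannosyltransferases of the endoplasmic reticulum load their serine and threonine residues with mannose. Hsp150 is a known substrate of Pmt1 and Pmt2 in this yeast. When the wall is damaged, the MAP kinase Slt2 and its transcription factor Rlm1 raise the transcripts of many wall genes, several PIR genes among them.

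Both strains were of the SEY6210 background, a laboratory yeast, and the labels name no drug or other agent. Wild type SEY6210 and pmt1 pmt2 each gave 2 Affymetrix arrays, and the design text counts each array as 1 biological sample. Overnight cultures were diluted to an OD of 0.1, grown to 0.45 and then kept growing for 3 h before total RNA was taken. The sources used here do not give the nature of the pmt1 and pmt2 mutations or say whether the mutant was 1 clone.

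The arrays of both groups matched their labels: PMT1 measured 993 ± 261 in wild type against 108 ± 5.37 in pmt1 pmt2, and PMT2 2708 ± 88.6 against 13.7 ± 2.55 (mean ± SD of the probe set signal, n = 2 arrays a group, here and below). The labels give no mating type. All 4 markers of haploid alpha cells lay above background on every array, with summed signals of 14778.2 and 16025.8 in wild type, against 9583.0 and 9876.9 in pmt1 pmt2. Of 6 markers of a cells, 1 or 2 lay above background, none was at 0, and their summed signals were 166.3 and 179.7 in wild type against 75.8 and 87.5 in pmt1 pmt2. Background was set at 26.2, which no control probe set for a bacterial or mouse transcript exceeded on any array (19 probe sets). Array medians lay between 54.4 and 66.1. For actin, the control at the transcript's 3′ end read 2.99 and 3.15 times the control at its 5′ end on the arrays numbered 1 but 1.38 and 1.32 times on those numbered 2, so each change is also given within each array number. The part of these differences in the results below was not tested.

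PIR3 rose 25.1-fold in pmt1 pmt2 and was the only PIR gene that passed the test. The other 4 did not pass, with measured differences between 1.25-fold and 1.94-fold, each higher in the mutant. A gene counted as changed at a Benjamini-Hochberg adjusted p under 0.05 in limma over the 5656 genes, a rule that 0.283% of all genes met as higher and 0.106% as lower in pmt1 pmt2. Of the 5 members, 1 rose and 0 fell, and the same held with array number in the model, where 2.32% of all genes were higher. At limma's unadjusted p under 0.05, 2 members were higher (PIR3 and HSP150), against 5.37% of all genes. The arrays of the groups did not overlap for 4 of 5 members, all higher in pmt1 pmt2, a pattern met by 18.5% of all genes, with 14.7% lower without overlap. All 5 members were higher within both array numbers, against 31.9% of all genes. The median log2 change of the family was 0.90 (0.69 and 0.97 within the arrays numbered 1 and 2), and that of all genes was 0.027 (−0.15 and 0.21). The family median is the value of PIR5, which lay below background on 3 of 4 arrays, and it was 0.62 on the log2(signal + 16) scale and 0.63 with signals raised to background. Without PIR3 the median of the remaining 4 was 0.76.

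**Figure D1:**
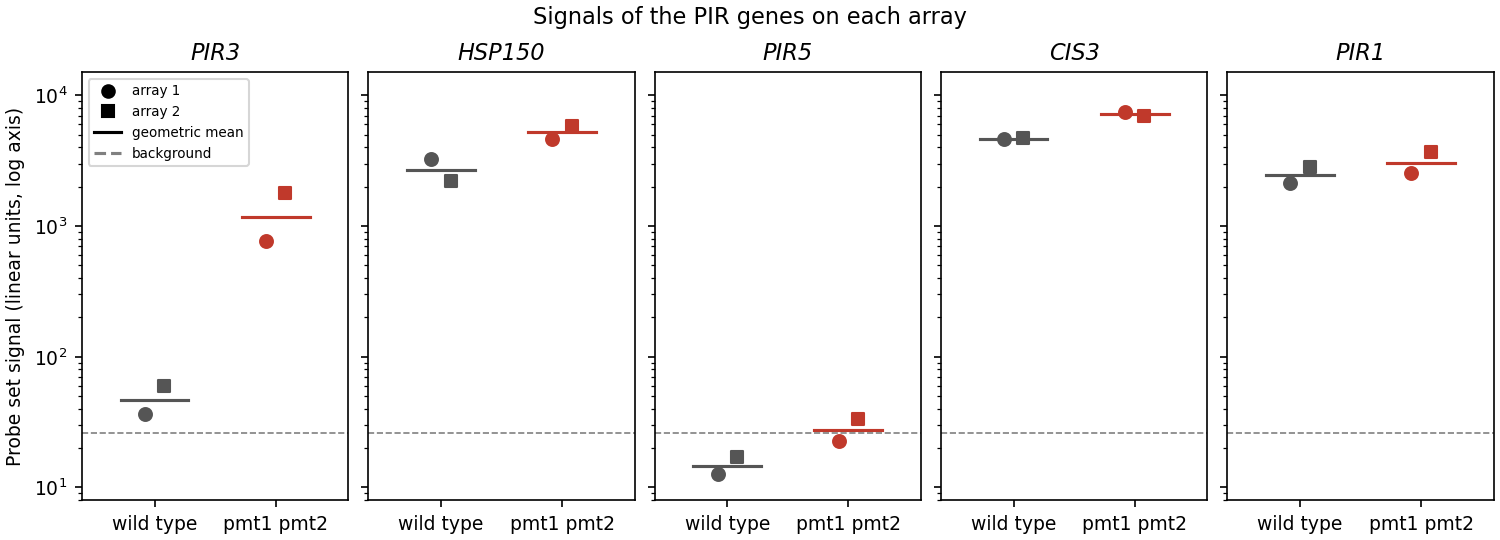
Probe set signal on a log axis for each PIR gene on each array, with circles for arrays numbered 1, squares for arrays numbered 2, bars for the geometric mean of a group and a dashed line for the background of 26.2. PIR3 moves from 36.4 and 60.2 to 769.3 and 1797.0, PIR1 is the only member whose groups overlap, and PIR5 lies near the background line.

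PIR3 encodes a repeat protein of the wall that is linked to β-1,3-glucan. The wild type arrays read 36.4 and 60.2, and the pmt1 pmt2 arrays read 769.3 and 1797.0. Both mutant arrays stood far above both wild type arrays, and within each group the array numbered 2 read higher. Group means were 48.3 ± 16.8 and 1283 ± 727, and the log2 change was 4.65 ± 0.53 (SE, limma adjusted p = 0.0364). The 95% interval ran from 3.36 to 5.94 on the log2 scale, or from 10.3-fold to 61.4-fold. Within the arrays numbered 1 and 2 the log2 change was 4.40 and 4.90. This was the change of rank 2 among the rises of all 5656 genes; SPG4, ahead of it and named after its values were seen, had a mean signal in pmt1 pmt2 below background. In a bulk culture, more PIR3 RNA in every cell and more cells that express it cannot be told apart.

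The wild type signals lay only a little above the background of 26.2, so the fold depends on how low signals are treated, and on the log2(signal + 16) scale the change was 4.24 (limma adjusted p = 0.0430). The call was lost when either mutant array was left out, with a log2 change of 5.26 without pmt1 pmt2 array 1 (limma adjusted p = 0.0958) and 4.04 without pmt1 pmt2 array 2 (0.213). The call was also lost after quantile normalization (limma adjusted p = 0.0669) and after centring (0.0508). The same held over every probe set (0.307) and with signals raised to background (0.338). Over the whole series 0, 11, 0 and 0 genes were higher in these settings, in that order. The call was kept with a minimum mean log2 of 6 (limma adjusted p = 0.00392), a mean-variance trend (0.0159) and array number in the model (0.00114).

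PIR1 lies next to PIR3 on chromosome XI and encodes a wall protein of the same design. Its signal was 2134.6 and 2822.9 in wild type, against 2541.7 and 3677.4 in pmt1 pmt2. The groups overlapped, since wild type array 2 read higher than pmt1 pmt2 array 1. Means were 2479 ± 487 and 3109.6 ± 803, and the log2 change was 0.32 ± 0.39 (SE, limma adjusted p = 0.994). The 95% interval ran from −0.63 to 1.26, or from 0.647-fold to 2.40-fold, so these arrays do not show whether PIR1 differed. The shift between array numbers was larger than that between the strains: array 2 exceeded array 1 by 0.40 in wild type and by 0.53 in pmt1 pmt2 on the log2 scale. Within the arrays numbered 1 and 2 the log2 change was 0.25 and 0.38. Dropping a mutant array gave 0.58 (array 1 dropped) or 0.05 (array 2 dropped), and dropping a wild type array gave 0.12 or 0.52.

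HSP150, a secreted and wall-bound PIR protein whose transcript is induced by heat, measured 3244.9 and 2213.0 in wild type, against 4637.0 and 5822.0 in pmt1 pmt2. Both mutant arrays were above both wild type arrays, but the array numbers ran in opposite directions: array 2 was lower than array 1 in wild type and higher in the mutant. Means were 2729 ± 729.7 and 5229.5 ± 838, a 1.94-fold difference. The log2 change was 0.96 ± 0.38 (SE), with a 95% interval of 0.02 to 1.89 and a limma adjusted p of 0.691 (0.0467 unadjusted). It was 0.52 within the arrays numbered 1 and 1.40 within those numbered 2. Leaving out wild type array 2 gave 0.68 and leaving out wild type array 1 gave 1.23, so the size of the HSP150 difference rested on which wild type array was used.

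CIS3, an O-mannosylated wall protein of the family, measured 4634.0 and 4670.8 in wild type, against 7481.0 and 6883.9 in pmt1 pmt2. The replicates lay closer together than for any other member, and the groups did not overlap. Means were 4652 ± 26.0 and 7182 ± 422, a 1.54-fold difference. The log2 change was 0.63 ± 0.34 (SE, 95% interval −0.20 to 1.45, limma adjusted p = 0.872), with 0.69 and 0.56 within the arrays numbered 1 and 2. The standard error of CIS3 came mostly from other genes. Its own arrays had a residual SD of 0.060 on the log2 scale, and limma's moderation, which borrows a typical spread of 0.411 over all genes, raised this to 0.34. For PIR3 the moderation worked the other way, from 0.71 to 0.53.

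PIR5, a less studied relative that adjoins HSP150 on chromosome X, was near the detection limit. Its signal was 12.6 and 17.2 in wild type, against 22.6 and 33.6 in pmt1 pmt2. Only pmt1 pmt2 array 2 read above the background of 26.2, and the remaining 3 arrays lay below it. Measured means were 14.9 ± 3.25 and 28.1 ± 7.78. With wild type held at the background level the ratio was 1.05-fold, which is no lower bound because pmt1 pmt2 array 1 also lay below background. The measured log2 change was 0.90 ± 0.40 (SE, limma adjusted p = 0.760), with 0.84 and 0.97 within the arrays numbered 1 and 2, but it was 0.18 when all signals below background were raised to it, a setting added after seeing the data.

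**Figure D2:**
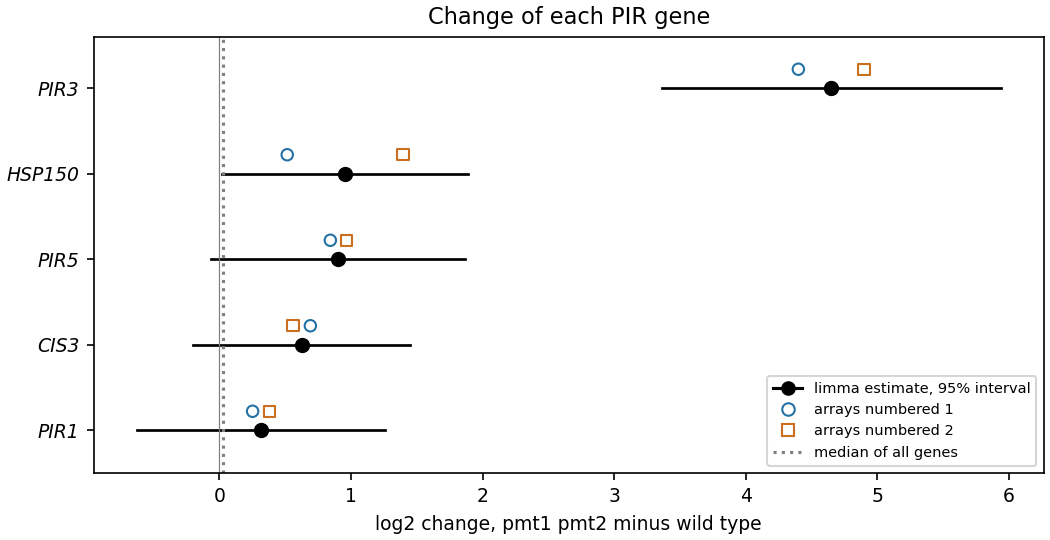
Log2 change of each PIR gene, with filled points for the limma estimate, lines for its 95% interval, open circles and squares for the change within the arrays numbered 1 and 2, and a dotted line for the median of all genes (0.027). The PIR3 interval lies apart from the intervals of the other members, which overlap each other.

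In order of measured change the members ran PIR3, HSP150, PIR5, CIS3 and PIR1, although PIR5, below background on 3 arrays, has no firm place. The log2 change of PIR3 exceeded that of HSP150 by 3.70 (3.89 and 3.50 within the array numbers) and that of PIR1 by 4.33 (4.15 and 4.52). These gaps were larger than the spread between array numbers, with SDs of 0.27 and 0.26. The log2 change of HSP150 exceeded that of CIS3 by 0.33, but was lower by 0.18 within the arrays numbered 1 and higher by 0.84 within those numbered 2. HSP150 exceeded PIR1 by 0.64 (0.26 and 1.01, SD 0.53), and CIS3 exceeded PIR1 by 0.31 (0.44 and 0.18, SD 0.18). The measured change of PIR5 exceeded that of PIR1 by 0.59 within each array number (0.59 and 0.58), but with signals raised to background PIR5 stood at 0.18, below the 0.32 of PIR1. With 2 arrays a group an exact two-sided permutation test of such a difference cannot go below p = 0.333. The 10 differences between members had exact permutation p of 0.333 to 1.0, and none was under 0.556 after Benjamini-Hochberg adjustment over the 10.

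**Figure D3:**
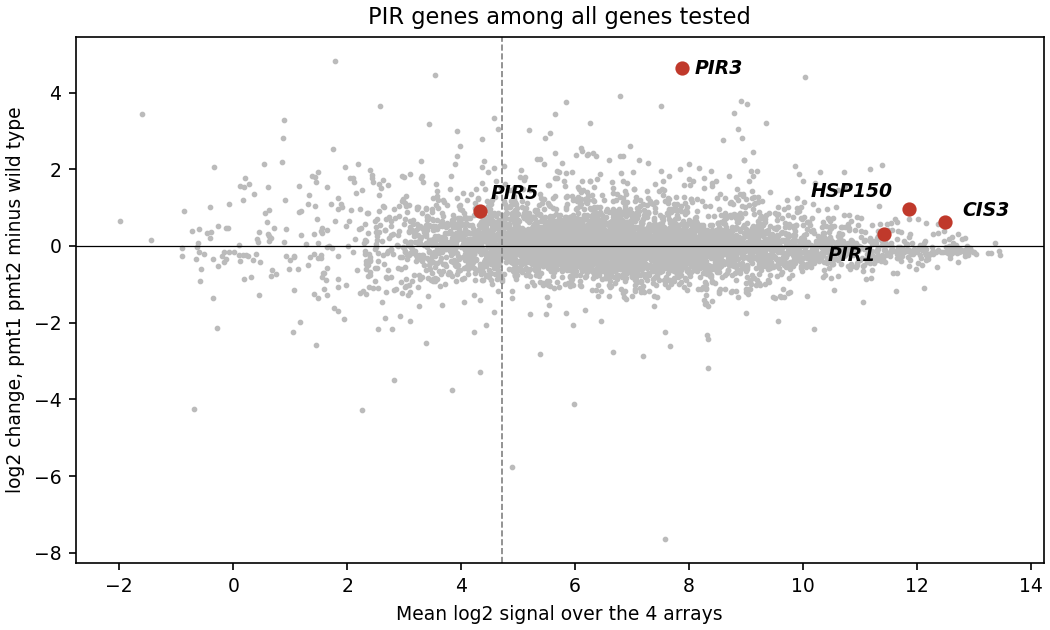
Log2 change against mean log2 signal over the 4 arrays for all 5656 genes tested (grey) and the PIR genes (red), with a dashed line at the background. PIR3 stands at the upper edge of the cloud, and the other 4 members lie within it or at its rim.

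The PIR genes sit in 2 clusters, and the neighbours were read in the chromosome order of the R64 assembly. On chromosome XI, PIR1 and PIR3 are adjacent and transcribed away from each other, so a shared stretch of intergenic DNA lies upstream of both. The log2 change of these adjacent genes was 0.32 and 4.65. The next gene but 1 beyond PIR3 is KDX1 (YKL161C), a paralogue of the kinase gene SLT2 and an Slt2-Rlm1 target, which measured 7.2 and 13.3 in wild type, against 25.2 and 81.7 in pmt1 pmt2. Both wild type arrays and 1 mutant array were below background. With wild type held at background the KDX1 ratio was 1.73-fold, which is no lower bound (limma adjusted p = 0.427 for the measured change). YKL162C, between PIR3 and KDX1, stayed below background on all 4 arrays, at 10.9, 9.5, 11.2 and 21.2. On the PIR1 side MCD4 (YKL165C), an enzyme of GPI anchor synthesis, measured 664.5 and 745.8 in wild type, against 1048.6 and 1940.6 in pmt1 pmt2 (log2 change 1.02, limma adjusted p = 0.719).

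On chromosome X, PIR5 and HSP150 are transcribed away from each other and HSP150 and CIS3 towards each other, and the 3 log2 changes were 0.90, 0.96 and 0.63. FMP33 (YJL161W), beside PIR5, measured 2.5 and 5.2 in wild type, against 19.8 and 54.5 in pmt1 pmt2. Only pmt1 pmt2 array 2 was above background. With wild type held at background the FMP33 ratio was 1.25-fold, which is no lower bound (limma adjusted p = 0.164 for the measured change). Beyond CIS3, FAR1 (YJL157C), a cell cycle inhibitor of the mating response, measured 475.6 and 476.5 against 241.3 and 546.4, and SSY5 (YJL156C), a protease of amino acid sensing, measured 62.6 and 55.8 against 69.0 and 203.6. In both the mutant arrays disagreed: the FAR1 log2 change was −0.98 and 0.20 within the array numbers, and that of SSY5 was 0.14 and 1.87. No neighbour of either cluster passed limma's test. With array number in the model FMP33 and KDX1 passed as higher (limma adjusted p = 0.00202 and 0.0128), while the other neighbours did not.

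**Figure D4:**
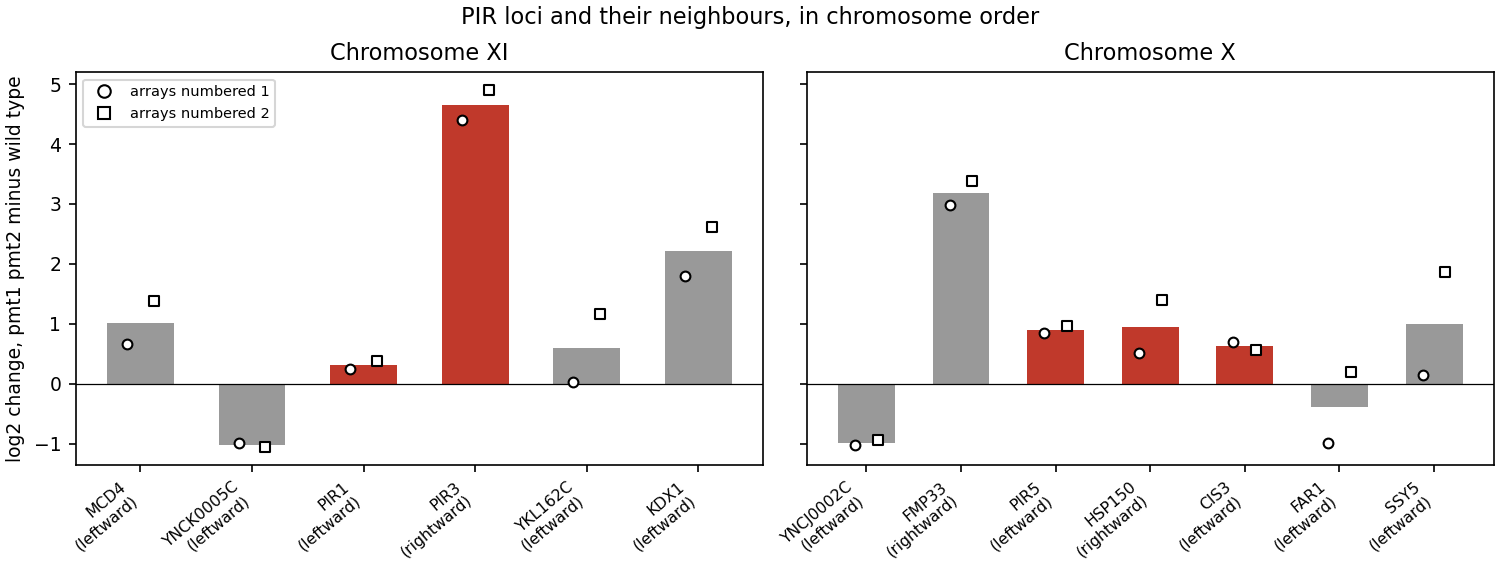
Log2 change of the PIR genes (red bars) and of the 2 genes on each side of each cluster (grey bars) in chromosome order, with open circles and squares for the change within the arrays numbered 1 and 2 and the direction of transcription under each name. Bars of FMP33, PIR5, YKL162C and KDX1 rest on signals mostly below background, and PIR1 and PIR3 differ although they are adjacent.

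The family was then set beside other genes of the wall programme. The other Slt2-Rlm1 output genes, 25 in number, were chosen with earlier results of these data known, so their direction is no independent evidence. Of them 4 rose and 0 fell, 21 missed limma's threshold, and the median of their log2 changes was 1.55 (1.18 on the arrays numbered 1 and 1.78 on those numbered 2). NCW2, a GPI-linked wall protein, changed by 3.21, the protease YPS3 by 3.71, NCA3 of the SUN family by 3.05 and NFG1, a regulator of filamentous growth, by 2.82 (limma adjusted p between 0.0364 and 0.0449). The log2 change of PIR3 was above that of all 25 genes. In contrast 18 of the 25 had a log2 change above those of HSP150 and PIR5, 19 above that of CIS3 and 22 above that of PIR1. For reference, the genes higher over the whole series were 131 of 5656 with array number in the model and 28 of 3539 with a minimum mean log2 of 6. They were 0 after quantile normalization and 11 after centring. The count of 4 depended on the scaling and the model: it was 0 after quantile normalization and 2 after centring each array on its median. It was 7 with a minimum mean log2 of 6 and 14 with array number in the model. Fits without a mutant array lost nearly all calls of the series, so their counts for this list are not read.

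GPI-linked wall mannoproteins, which reach the wall by way of a lipid anchor, went both ways. This list is not separate from the other Slt2-Rlm1 output genes, since NCW2, PST1, CWP1, SED1 and CCW14 are in both. Of 19 measured, 1 (NCW2) rose, 0 fell and 18 did not pass, and 8 were higher and 8 lower within both array numbers, as were 31.9% and 31.0% of all genes. With array number in the model 3 of the 19 were higher and 1 lower, against 131 higher and 40 lower of all 5656 genes. With a minimum mean log2 of 6 FLO11 passed as lower, as 1 of 10 such genes among the 3539 tested. The median log2 change of the GPI list was 0.0082 and turned to −0.052 after centring, where that of all genes was −0.0335. The NCW2 call was lost without pmt1 pmt2 array 1 and without array 2, as were nearly all calls of the series. SPI1, a wall protein induced in stationary phase, measured 269.0 and 327.3 in wild type, against 957.0 and 1365.6 in pmt1 pmt2 (log2 change 1.95, limma adjusted p = 0.164). PST1 measured 525.3 and 491.3 against 1572.9 and 2218.8 (1.88, adjusted p = 0.164). The flocculin gene FLO11 went the other way, at 473.3 and 366.8 against 74.0 and 102.7 (−2.26, limma adjusted p = 0.126). The difference between the PIR and GPI lists was not tested.

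Genes whose products make or attach PIR proteins were measured too. Besides the mutated PMT1 and PMT2, which fell, the other 11 of the 13 did not pass limma's test, and the median log2 change of the list was −0.0098. This median moved to 0.24 when pmt1 pmt2 array 1 was dropped and to −0.12 when array 2 was dropped. That of all genes moved alike, to 0.24 and −0.14. In these fits with 1 mutant array nearly all calls of the series were lost, so their calls of PMT1 and PMT2 are not read. KEX2, the protease that trims PIR precursors, measured 208.7 and 303.2 in wild type, against 203.4 and 306.9 in pmt1 pmt2, a log2 change of −0.0098. Like KEX2, FKS1 was named for its role after its values were seen. Of the glucan synthase subunits, FKS1 measured 2636.5 and 1556.1 against 1859.7 and 2226.9, with overlapping groups, and GSC2 measured 230.7 and 246.7 against 1257.7 and 1342.7 (log2 change 2.45, limma adjusted p = 0.0746). GSC2 passed with array number in the model (limma adjusted p = 0.00520), with a minimum mean log2 of 6, on the log2(signal + 16) scale and with a mean-variance trend. MNN1, a mannosyltransferase that caps mannose chains, measured 249.2 and 246.5 against 376.5 and 476.5 (0.77, adjusted p = 0.773).

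Genes for transcription factors of wall and stress programmes were also set beside the family. Of the 12 analysed, 0 passed limma's test, 0 had an unadjusted p under 0.05, and 0 passed with array number in the model. Their median log2 change was −0.037, and it ran from −0.28 to 0.28 with 1 array left out. That of all genes ran from −0.14 to 0.24 in the same fits. RLM1 measured 190.5 and 117.1 against 246.6 and 205.7 (log2 change 0.59, limma adjusted p = 0.930). The log2 change was 0.51 for SKN7, −0.55 for STE12 and −0.38 for MBP1, and none of these passed.

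**Figure D5:**
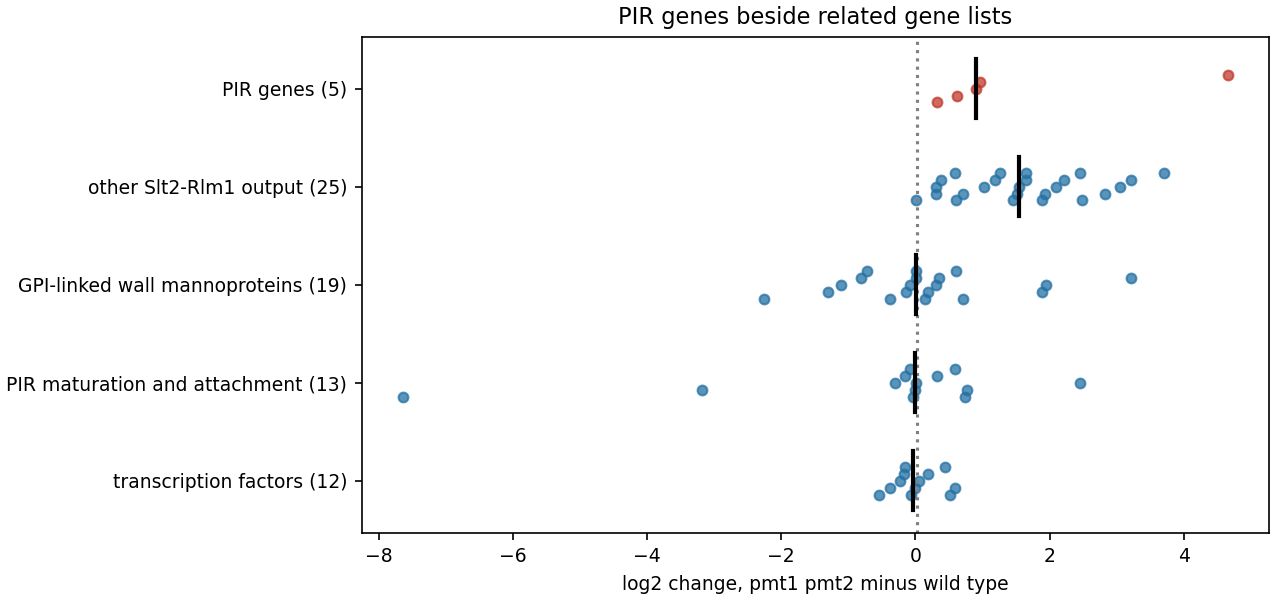
Log2 change of each gene (points) in the PIR family and in 4 related lists, with the number of genes measured in brackets, black bars for the list medians and a dotted line for the median of all genes. The PIR median is 0.90 and that of the other Slt2-Rlm1 output genes 1.55, while the remaining lists have medians between −0.037 and 0.0082. The lists share genes: NCW2, PST1, CWP1, SED1, CCW14, FKS1, GSC2 and RLM1 are among the Slt2-Rlm1 output genes and also in a further list.

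Profiles over the 4 arrays were compared by the root mean square distance between log2 values centred on each gene's mean, among 3539 genes with a mean log2 signal of at least 6. With 4 arrays close matches are easy to find, so the distances only describe. The closest gene to PIR3 was YPS3, at 0.53, then RTC3 at 0.54 and MNC1 at 0.57. HSP150 was closest to ATG32, a receptor for mitophagy, at 0.046, followed by LIH1 and KCH1 at 0.053 each. CIS3 was closest to the thioredoxin gene TRX2 at 0.080, to GGC1, a mitochondrial guanine nucleotide carrier, at 0.081 and to the GPI-linked wall protein gene SED1 at 0.081. PIR1 was closest to MET22 at 0.024, to MMS2 at 0.025 and to AIT1 at 0.027, and PIR5 to SOH1 at 0.066, SNA3 at 0.069 and SNA2 at 0.081. Of PIR1, PIR3, HSP150 and CIS3, the members bright enough to be searched as matches, none was among the 3 closest to another member. The shortest distance among these 4 was 0.30, between HSP150 and CIS3.

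The members share sequence in their repeats, so a probe set of 1 PIR gene may also take up RNA of another, and the part of this in the values was not tested. The PIR3 probe set read at most 60.2 on the wild type arrays, where the PIR1, HSP150 and CIS3 probe sets all gave signal. Uptake of PIR3 RNA by the probe sets of the other members in pmt1 pmt2 was not tested.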

How the data were processed

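The authors deposited 1 linear intensity per probe set and array, from 0 to 12590.3, for 9335 probe sets on 4 arrays. The submitters' processing notes name GCRMA, with no version or setting, and no scaling between arrays is stated; zeros and unequal array medians are unusual for GCRMA output, so the summary method is uncertain. Signals were used as they stand, with zeros set to 0.1 and log2 taken. Probe sets with 1 gene symbol (6504) gave 5656 genes, by the brightest probe set where a gene had several, and platform symbols were updated by gene ID to the R64 assembly. The test was two-sided, by lmFit and eBayes of limma 3.58.1 (R 4.3.3), over all 5656 genes without a filter. The fit was also run on simulated data with independent noise and large changes. That run did not cover shifts shared by same-numbered arrays or changes as small as those of most members. The precision is limited by the number of arrays, which leaves 2 residual degrees of freedom. A ratio with wild type held at background sets wild type signals below background at 26.2 and leaves the mutant signals as measured. Members, lists, tests and the naming rule were chosen with earlier results of these data known. The rule named all members, PMT1 and PMT2, the 2 genes on each side of each PIR cluster, up to 4 genes with the smallest p of each list, and the 3 closest profiles per member. Alternatives were quantile normalization, centring, a minimum mean log2 of 6, log2(signal + 16), a mean-variance trend, all probe sets, array number as a replicate block and leaving out each array; raising signals to background was added after seeing the data. Promoter and protein sequences were not used here. A further planned gene list is not reported here.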

Additional observations from a re-analysis of the deposited data

How the results depend on the processing

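All 5 members kept a log2 change above 0 in each of the 69 alternative values computed, which all reuse the same arrays. Array number as a replicate block, a mean-variance trend, all probe sets and the minimum mean log2 of 6 left each log2 change as in the fit reported. Their signs were therefore fixed in advance. Of the 69 values, 63 kept their side of limma's threshold, among them every value of the 4 members that never passed. The exceptions were all PIR3, which kept its call in 8 of 14 alternatives. PIR3 lost it, among others, when either mutant array was left out. Its limma adjusted p rose to 0.0669 after quantile normalization (log2 change 4.65), 0.0508 after centring (4.59), 0.307 over every probe set (4.65) and 0.338 with signals raised to background (4.65), a setting chosen after seeing the data that gives dim genes no spread. Over the alternatives that keep every array the limma adjusted p of PIR3 lay between 0.00114 and 0.338. Leaving out 1 array at a time gave log2 changes of 4.04 to 5.26 for PIR3, 0.68 to 1.23 for HSP150, 0.62 to 1.19 for PIR5, 0.57 to 0.69 for CIS3 and 0.05 to 0.58 for PIR1. PIR5 gave no value with a minimum mean log2 of 6. The labels share the numbers 1 and 2 between groups without saying that they pair arrays. Deviations of same-numbered arrays nevertheless correlated, at r = 0.65 over all genes and 0.83 over those with a mean log2 of at least 6. With array number as a replicate block the adjusted p was 0.00114 for PIR3, 0.123 for PIR5, 0.164 for HSP150, 0.273 for CIS3 and 0.599 for PIR1, so no member's call changed. The count of changed genes, 22 in the fit reported, was 171 with the block, 55 with the block and quantile normalization, 2 after quantile normalization, 38 with the minimum of 6, 1 with signals raised to background and 0 over every probe set (510 at limma's unadjusted p under 0.05). It ran from 0 to 62 with 1 array left out. The cause of these shifts was not tested.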

Other observations

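Each PIR cluster is flanked by a tRNA gene, YNCK0005C beside PIR1 and YNCJ0002C beyond FMP33, and their probe sets read nearly alike. YNCK0005C measured 986.4 and 688.8 in wild type, against 499.4 and 333.1 in pmt1 pmt2, and YNCJ0002C measured 997.2 and 689.2 against 490.1 and 361.6. In both the groups did not overlap and the mutant was lower, with log2 changes of −1.02 and −0.98 (limma adjusted p = 0.687 for both). Transfer RNA genes exist in near-identical copies, so the source of these signals is uncertain, and they are not taken as values of the PIR neighbourhood.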
